A study of Mus musculus with 16 samples.

Results

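Dnmt1 and Uhrf1 encode the core of the machinery that maintains DNA methylation, and their transcripts were followed in 16 bulk RNA libraries from ES-E14TG2a (E14), a line of pluripotent cells from the mouse embryo. The genes were taken by name, and every transcript of them was found by its Ensembl identifier with the version removed: 7 transcripts of Dnmt1 and 7 of Uhrf1, 14 of the 119414 transcripts listed and 2 of 35975 genes. The genotypes, written WT and TKO, were sampled on day 0 and on days 2, 4 and 7 after release toward an epiblast-like state (EpiLC), with 2 libraries called biological replicates in each of the 8 groups. Day 0 cells of both genotypes grew on fibronectin in N2B27 medium with LIF, vitamin C and inhibitors of Gsk3 and MEK, which holds them in the naive state. Later cells of both genotypes had been moved to Fgf2, Activin A and knock-out serum, with an extra split on day 4. TKO is not expanded in the labels and was taken to mean disruption of Dnmt1, Dnmt3a and Dnmt3b. Which exons were removed, and whether the TKO line is 1 clone, is not given in the sources used here.

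Dnmt1 copies CpG methylation onto the new DNA strand during replication. Uhrf1 binds hemimethylated CpG sites and histone H3, and with its RING domain ubiquitinates histone H3 and the PCNA-associated factor Pclaf, marks that recruit Dnmt1. Dnmt3a and Dnmt3b, with the cofactor Dnmt3l, set methylation anew when naive cells leave the inhibitors.

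Depth, as the sum of estimated counts, was 39799498 to 58197630 for WT and 33168178 to 47064338 for TKO, with 8 libraries of each. All 5 core pluripotency markers (Pou5f1, Sox2, Nanog, Utf1, Sall4) were above 0 in every library, with a summed level of 1001 to 2354 CPM (estimated counts scaled to TMM library sizes). Summed fibroblast markers held 3.65 to 38.1 CPM, with Postn at 0 in 7 libraries. Of the 4 mesoderm markers 3 were tested, and all 3 were called higher in TKO on day 7 (background 23.4% of genes); the 4 summed to 740.2 and 764 CPM in TKO against 144 and 116 CPM in WT, with Mesp1 at 0 in 7 libraries. Of the 5 core markers 4 were called lower in TKO on day 7 (background 21.1%), with sums of 1001 and 1011 CPM against 1332 and 1379 in WT. On day 4, 4 of 5 naive markers were called higher in TKO, with sums of 80.1 and 45.5 CPM against 24.4 and 26.1 in WT, and 3 of 4 primitive endoderm markers, with 10.98 and 3.20 CPM against 2.17 and 1.86 (background 17.8%). Naive markers were then 3 higher and 1 lower on day 7, and primitive endoderm markers 2 lower. Of 3 neural markers tested, 1 was called higher in TKO on day 0 (background 4.52%), 1 on day 2 (7.91%) and 2 on day 4, and 2 lower on day 7. The day 0 and day 2 calls were each lost when certain single libraries were left out, as was part of those of day 7. The neural list summed to 85.7 and 85.1 CPM in TKO against 33.3 and 30.1 in WT on day 0. On day 7 it summed to 32.2 and 31.7 against 65.9 and 62.65. Of 3 formative markers, 1 was higher on day 4 and 2 lower on day 7. The 2 TKO day 4 libraries stood apart from each other, with Dnmt3a at 187 and 33.9 CPM. Day 4 results were therefore also computed without each of them, with values beside the gene sums of both members and some other results. The marker counts above use all libraries. Not all naive and primitive endoderm calls of day 4 held without certain single libraries, nor all core, mesoderm and naive calls of day 7. The 2 WT day 0 libraries also differed. The chi-square per degree of freedom between replicates was 66.7 there, against 28.6 for TKO day 4 and 1.81 for TKO day 0. In bulk RNA, fewer cells with a transcript and less transcript per cell cannot be told apart.

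Dnmt1 (ENSMUSG00000004099.16, chr9:20907209-20959888 of GRCm38, minus strand) was 8.23- to 9.08-fold lower in TKO on the count scale on every day, and a remnant of its RNA stayed measurable in every TKO library. Summed over its transcripts, Dnmt1 stood at 104 and 146 TPM (the deposited abundance, scaled for depth and transcript length) in the WT libraries of day 0, at 119 and 96.1 on day 2, at 89.7 and 87.4 on day 4 and at 91.8 and 94.2 on day 7. The TKO libraries held 16.6 and 17.4 TPM on day 0, 14.8 and 16.6 on day 2, 12.0 and 13.7 on day 4, and 13.1 and 14.8 on day 7. The genotypes did not overlap: the lowest WT library lay far above the highest TKO library. The mean TPM in TKO was 13.6%, 14.6%, 14.5% and 15% of the WT mean on days 0, 2, 4 and 7. In estimated counts this remnant was 1261 to 2234 counts a library.

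On the count scale the log2 fold change of Dnmt1, TKO against WT, was -3.18 ± 0.10 (SE) on day 0, -3.07 ± 0.10 on day 2, -3.04 ± 0.10 on day 4 and -3.08 ± 0.10 on day 7. By edgeR's quasi-likelihood test with Benjamini-Hochberg adjustment over all genes, the adjusted p was 9.44e-10, 1.43e-09, 1.62e-09 and 1.1e-10. Of all 18489 genes tested, 12.7%, 13.4%, 28.9% and 44.5% were called on these days. By edgeR, 835 genes were higher and 1508 lower on day 0, and 1462 and 1020 on day 2. In limma on log2(TPM + 1), a scale without TMM, these were 1357 and 630 on day 0 and 1651 and 330 on day 2, so the direction of small differences depends on the scale. Ordered from the most negative fold change, Dnmt1 was at place 154, 178, 41 and 140 of 18489. The size of the difference did not change detectably over the course: relative to day 0 it moved by 0.11 on day 2 (95% interval -0.16 to 0.39), 0.14 on day 4 (-0.14 to 0.42) and 0.10 on day 7 (-0.18 to 0.38), with adjusted p of 0.682, 0.515 and 0.634. Without either TKO day 4 library the day 4 value was -2.96 or -3.13. A gene sum does not show which exons the remaining reads came from.

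Uhrf1 (ENSMUSG00000001228.14, chr17:56303321-56323486 of GRCm38, plus strand) was not called different between genotypes on days 0 and 2 and was slightly higher in TKO on days 4 and 7. Its WT libraries held 345 and 435 TPM on day 0, 249 and 201 on day 2, 159 and 158 on day 4 and 157 and 158 on day 7. Its TKO libraries held 455 and 458 TPM on day 0, 272 and 284 on day 2, 198 and 189 on day 4 and 220.3 and 207 on day 7. In TPM both TKO libraries lay above both WT libraries on each day.

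On the count scale, with TMM scaling, the Uhrf1 differences were smaller than in TPM. The log2 fold change was 0.06 ± 0.07 (SE, 95% interval -0.09 to 0.22, adjusted p = 0.633) on day 0 and 0.14 ± 0.07 (-0.02 to 0.29, adjusted p = 0.224) on day 2, both below the call by edgeR. It was 0.25 ± 0.07 (0.09 to 0.40, adjusted p = 0.0206) on day 4 and 0.29 ± 0.07 (0.13 to 0.44, adjusted p = 0.00558) on day 7, a 1.22-fold difference. Higher genes were 17.8% and 23.4% of all genes tested on these days. Naive, primitive endoderm, neural and formative markers differed on both days as given above, and mesoderm and core markers on day 7. On day 4, 1 mesoderm and 1 core marker were also called lower in TKO (background 11.1%). That mesoderm call was lost when certain single libraries were left out. The part of these markers in the Uhrf1 difference was not tested. Both calls were lost without single libraries. On day 4 the adjusted p became 0.121 or 0.0544 when WT replicate 1 or 2 was left out, 0.11 when TKO replicate 1 was, and 0.049 when TKO replicate 2 was. On day 7 it became 0.0709 or 0.0713 when WT replicate 1 or 2 was left out, and 0.117 when TKO replicate 1 was. The change of the difference from day 0 was not called on any day (adjusted p of 0.737, 0.255 and 0.125, where 7.56%, 16.3% and 27.1% of all genes were called).

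**Figure D1:**
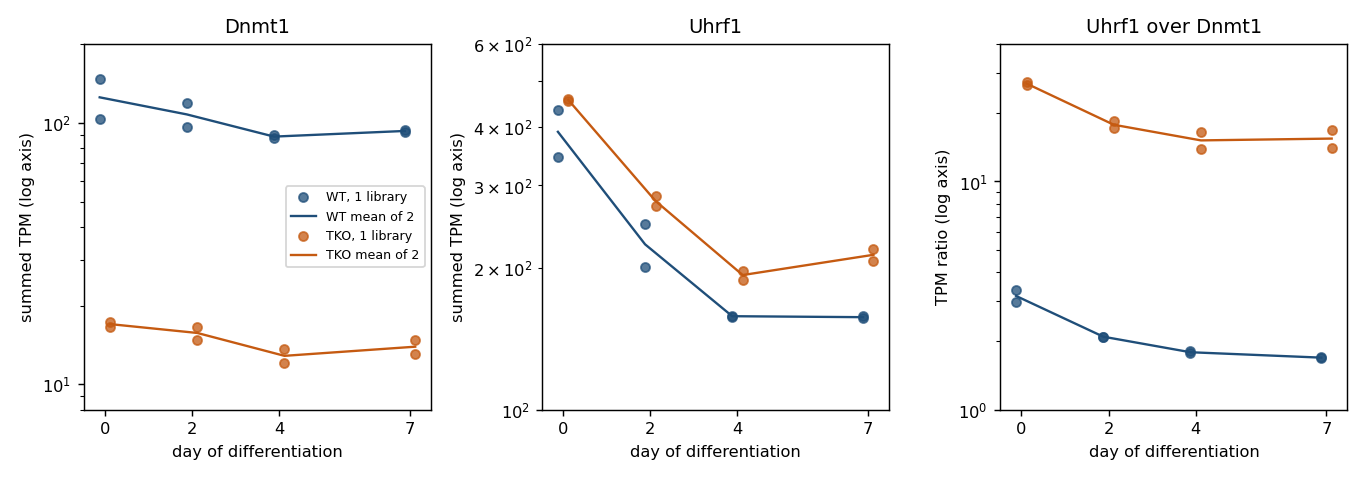
Summed TPM of Dnmt1 and Uhrf1 and their ratio (y, log axes) by day of differentiation (x), with 1 point per library and lines through the means of 2. Dnmt1 is at 87.4 TPM or above in every WT library and at 17.4 TPM or below in every TKO library, while Uhrf1 falls in both genotypes.

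Both genes fell during differentiation, Uhrf1 by more than Dnmt1, and nearly all of the fall came before day 4. Uhrf1 in WT fell by 0.82 on the log2 scale from day 0 to day 2 (adjusted p = 3.28e-07, edgeR) and by 0.66 from day 2 to day 4 (adjusted p = 4.78e-06). Its change from day 4 to day 7 was -0.10 (95% interval -0.26 to 0.05, adjusted p = 0.29). In TKO the same steps were -0.74 (adjusted p = 9.43e-07), -0.55 (4.02e-05) and -0.06 (0.501). From day 0 to day 7 Uhrf1 was 2.98-fold lower in WT and 2.56-fold lower in TKO. Genes called on the 3 steps were 61.5%, 54.4% and 36.8% of all genes in WT, and 57%, 45.4% and 45.4% in TKO.

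Dnmt1 in WT fell by 0.25 from day 0 to day 2 (adjusted p = 0.0262, edgeR) and by 0.41 from day 2 to day 4 (adjusted p = 0.00155), with -0.02 from day 4 to day 7 (adjusted p = 0.877). The first of these calls was lost without WT day 0 replicate 2 (-0.14, adjusted p = 0.164) or WT day 2 replicate 2 (-0.19, adjusted p = 0.171). The TKO remnant changed by -0.14 (adjusted p = 0.225), -0.38 (0.00408) and -0.07 (0.597) over the same steps. Its middle step was not called without TKO day 2 replicate 2 (-0.31, adjusted p = 0.0541) or TKO day 4 replicate 1 (-0.29, adjusted p = 0.0617). From day 0 to day 7 Dnmt1 fell by 0.69 in WT and by 0.59 in TKO (adjusted p = 1.31e-05 and 7.52e-05), where 66.2% and 67.8% of all genes were called. In limma on log2(TPM + 1), without TMM scaling, the TKO fall was 0.27 and not called (adjusted p = 0.128). That scale also moved the median of all genes up, from 0.04 to 0.165 log2 in TKO and from -0.03 to 0.13 in WT over day 0 to day 7.

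By TPM, Uhrf1 went from place 320 of 18489 genes in WT on day 0 to place 934 on day 7, and from 291 to 648 in TKO. Dnmt1 was at place 1109 in WT and 6788 in TKO on day 0. Uhrf1 held 3.15 ± 0.255 TPM per TPM of Dnmt1 in WT on day 0 (SD, n = 2), 2.09 ± 0.00188 on day 2, 1.79 ± 0.0254 on day 4 and 1.69 ± 0.0198 on day 7. The ratio was 26.8 ± 0.684, 17.7 ± 0.868, 15.1 ± 1.87 and 15.4 ± 1.95 in TKO. Within a genotype the 2 genes moved together over the libraries (Pearson r of log2 CPM of 0.966 over 8 WT and 0.926 over 8 TKO libraries), while over all 16 libraries r was 0.0135, with the libraries at 2 separate levels of Dnmt1. These libraries share days and depth, and the values are descriptions.

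The 14 transcripts differ in their first exons, in short alternative stretches and in retained introns, and these features decide what can be told apart. The following features are those that separate the abundant transcripts. Dnmt1-201 (39 exons, 4860 coding bases) starts in the exon chr9:20952708-20952979 with the usual somatic start. Dnmt1-202 (39 exons, 4503 coding bases) starts 6909 bases upstream in the exon chr9:20959733-20959888, the place of the first exon known from oocytes, and its coding region begins at a later ATG. Dnmt1-203 and Dnmt1-207 start in a long exon beside the somatic one. Dnmt1-201 and Dnmt1-207 also hold 3 more bases, CAG, at chr9:20940552-20940554, where Dnmt1-202 and Dnmt1-203 use the next splice acceptor. The 2 forms of that junction are shown with 24 bases on each side, 5′ to 3′ on the minus strand, with the 3 bases in capitals. They are among the features that separate the Dnmt1 transcripts.
Dnmt1 with the 3 bases: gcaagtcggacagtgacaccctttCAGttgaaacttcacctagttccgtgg
Dnmt1 without them: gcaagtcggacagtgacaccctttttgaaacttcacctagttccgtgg

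Of the 31-base words in the transcript sequences of GENCODE vM21, 163 occur in Dnmt1-201 alone and 154 in Dnmt1-202 alone, 18 in Dnmt1-203 and none in Dnmt1-207. Another 30 words are shared by Dnmt1-202 and Dnmt1-203 only and span the junction without the 3 bases. The junction lies 356 spliced bases after the first exon, so a read over it does not show which start it came from. The estimate for Dnmt1-202 rests on its 154 own words and on this junction, and how much each contributed was not tested.

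Both main Dnmt1 transcripts fell together in TKO. Dnmt1-201 held 57.3 to 100.7 TPM in WT libraries and 6.71 to 10.3 TPM in TKO libraries. Its log2 fold change was -3.20, -3.21, -2.89 and -2.90 on days 0, 2, 4 and 7, called each time (adjusted p of 8.45e-06, 3.32e-05, 1.18e-05 and 1.71e-06, edgeR over all transcripts). Dnmt1-202 held 25.1 to 41.3 TPM in WT and 2.04 to 5.49 TPM in TKO. Its log2 fold change was -3.50, -3.10, -3.29 and -3.60 (adjusted p of 0.00142, 0.0102, 0.00071 and 0.000141). Of all 64490 transcripts tested, 1.19%, 0.363%, 3.19% and 8.05% were called on these days. Without TKO day 4 replicate 1 or 2 the day 4 values were -2.72 and -3.08 for Dnmt1-201 and -3.705 and -2.97 for Dnmt1-202, all called. The day 2 call of Dnmt1-202 ended without WT day 2 replicate 2 (adjusted p = 0.0575).

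The other Dnmt1 transcripts were scarce. Dnmt1-203 reached 2.08 TPM, Dnmt1-204 1.80 TPM, Dnmt1-205 0.31 TPM and Dnmt1-207 0.47 TPM at most, and the filter on low counts removed Dnmt1-205 and Dnmt1-207. Thus 12 of the 14 transcripts were tested. Dnmt1-203 gave log2 values of -1.42 to -3.07 and Dnmt1-204, which holds retained introns at the 3′ end, of -0.61 to -1.46. Neither was called on any day.

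Dnmt1-206, which keeps an intron at chr9:20936622-20937161 (540 of its 693 bases), was not called different between genotypes. In WT it held 1.84 and 1.78 TPM on day 0, 2.01 and 1.22 on day 2, 2.53 and 1.67 on day 4 and 1.56 and 1.54 on day 7. In TKO it held 1.63 and 1.68 TPM on day 0, 1.19 and 1.38 on day 2, 1.60 and 1.77 on day 4 and 1.39 and 2.43 on day 7. The genotypes overlapped in level over the course. Its log2 fold change was -0.37 ± 0.39, -0.54 ± 0.39, -0.30 ± 0.38 and 0.17 ± 0.39 (SE), with adjusted p of 0.767, 0.678, 0.856 and 0.894 (edgeR).

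The share of Dnmt1-206 in Dnmt1 TPM was higher in TKO. It is a share of a gene sum that was far lower in TKO, while its own level was not called different. The test of this share therefore restates the fall of the other Dnmt1 transcripts and is not a separate result. It was 8.0% to 16.5% in the 8 TKO libraries and 1.21% to 2.82% in the 8 WT libraries, with no overlap. The mean difference was 9.39 percentage points (11.1% against 1.75%; two-sided exact permutation of genotype within day, p = 0.001543, the smallest that the 1296 arrangements allow, adjusted p = 0.0108 over 7 transcripts). In estimated counts the transcript is a small part: 14.4 to 26.1 counts in TKO and 19.6 to 51.3 in WT, and a group mean of 0.88% to 1.53% of Dnmt1 counts in TKO against 0.15% to 0.24% in WT. Of its 663 words, 443 occur in no other transcript of Dnmt1 and in no other gene, and 123 also occur in other genes. Over all Dnmt1 transcripts, 128 words are shared with other genes, and 1211 genes hold at least 1 of them. How many of the estimated counts of Dnmt1-206 came from other genes was not tested. Set against the rest of the gene over all transcripts, on each day alone (edgeR diffSpliceDGE), the log2 difference was 2.87, 2.59, 2.66 and 3.23, with adjusted p of 0.288, 0.499, 0.472 and 0.171, so no single day passed, although the unadjusted p was 0.00528, 0.0107, 0.00809 and 0.00223.

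The shares of Dnmt1-201 and Dnmt1-202 were 61.0% and 21.5% in TKO and 66.5% and 29.3% in WT. Their differences of -5.51 and -7.79 points did not pass after adjustment (exact permutation within day, adjusted p of 0.0900 and 0.0594). In shares of estimated counts the Dnmt1-201 difference turned direction, to 1.98 points higher in TKO.

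**Figure D2:**
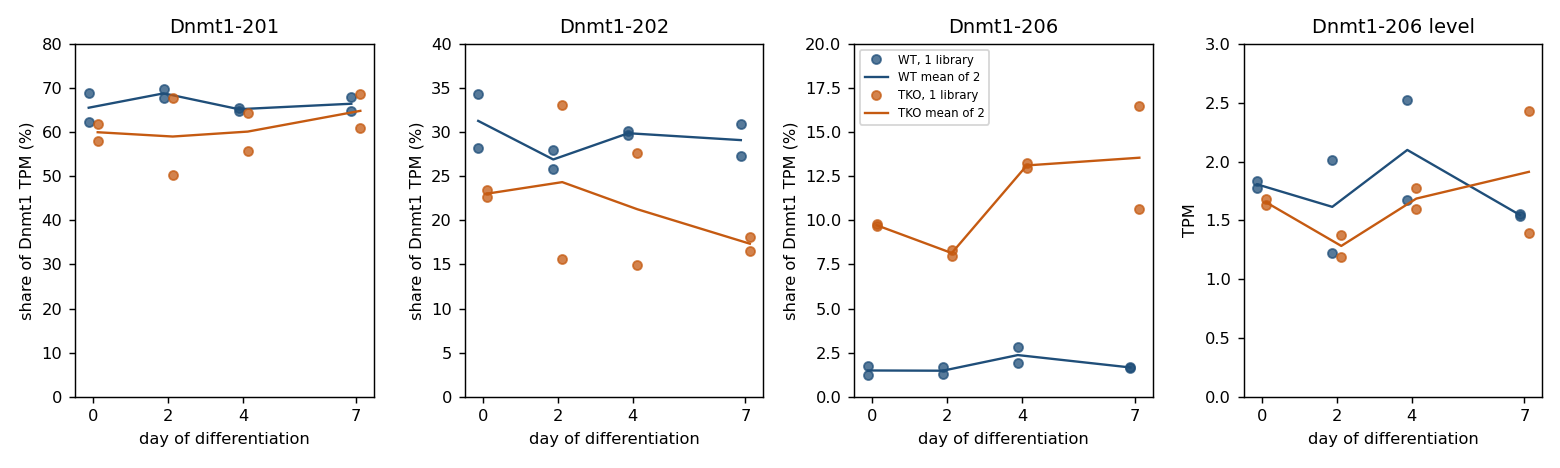
Share of summed Dnmt1 TPM (y, percent) held by Dnmt1-201, Dnmt1-202 and Dnmt1-206, and the TPM of Dnmt1-206 (right), by day (x), with 1 point per library and lines through the means of 2. The Dnmt1-206 share is 8.0% or more in TKO and 2.82% or less in WT, while its TPM overlaps between genotypes.

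The 4 full-length Uhrf1 transcripts use a pair of first exons whose starts lie 992 bases apart. Uhrf1-201 and Uhrf1-203 start at chr17:56303321 and chr17:56303400 in the upstream one, and Uhrf1-202 and Uhrf1-204 at chr17:56304313 and chr17:56304348 in the downstream one. A stretch of 24 coding bases at chr17:56313041-56313064 is kept in Uhrf1-201 and Uhrf1-204 (782 coding codons) and in the partial transcript Uhrf1-205, and left out of Uhrf1-202 and Uhrf1-203 (774). It is shown in capitals with 24 bases on each side, plus strand, because it is the difference in coding sequence among the 4 full-length transcripts.
Uhrf1 with the stretch: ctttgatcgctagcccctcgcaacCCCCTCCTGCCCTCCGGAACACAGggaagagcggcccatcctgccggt
Uhrf1 without it: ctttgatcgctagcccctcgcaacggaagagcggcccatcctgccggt

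Uhrf1-203 and Uhrf1-204 have no 31-base word of their own. Uhrf1-201 has 79 and Uhrf1-202 has 35, all at the 5′ end, and the stretch lies 889 spliced bases beyond the first exon. The split among the 4 transcripts is therefore weakly determined. The tests of transcripts take the estimated counts as given and do not count this uncertainty. The pair with the upstream first exon, Uhrf1-201 and Uhrf1-203, shares 160 words found in no other Uhrf1 transcript, and the pair with the downstream one shares 44. Uhrf1-202 and Uhrf1-203, without the stretch, share 30. The 54 words that hold the stretch are also in Uhrf1-205, so the sum that keeps it has no words of its own. These sums were chosen after the transcript values were seen and carry no test.

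Uhrf1-201 was the most abundant, with 55.3% to 74.4% of Uhrf1 TPM in the 16 libraries. Its log2 fold change between genotypes was 0.10, 0.30, 0.26 and 0.13 on days 0, 2, 4 and 7, not called on any day (adjusted p of 0.793, 0.334, 0.317 and 0.572, edgeR). From day 0 to day 7 it fell by 1.35 in WT and by 1.31 in TKO (adjusted p of 6.94e-06 and 8.54e-06), where 27% and 26.6% of all transcripts were called. Uhrf1-202 was not called over the same time: its change was 0.06 ± 0.36 (SE) in WT and 0.09 in TKO (adjusted p of 0.936 and 0.893, edgeR). In WT it ran from -0.32 to 0.53 with 1 library left out. Its share of Uhrf1 went from 6.5% to 19.6% in WT and from 5.97% to 15.04% in TKO, given as group means without a test. Uhrf1-204, with the same first exon, had group means of 51.2, 21.5, 2.09 and 8.69 TPM in WT on days 0, 2, 4 and 7. In TKO they were 53.0, 17.3, 9.47 and 36.4 TPM. The WT change of Uhrf1-204 from day 0 to day 7 was -2.84 (adjusted p = 0.016, edgeR). With 1 library left out it ran from -3.35 to -2.18, and the call was not always kept.

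Uhrf1-203 fell most. It held 61.1 and 43.3 TPM in WT on day 0, 41.2 and 44.6 on day 2, 4.35 and 6.96 on day 4, and 0.28 and 0.0057 on day 7. In TKO it held 60.2 and 51.7 TPM on day 0, 25.7 and 42.3 on day 2, 11.6 and 10.4 on day 4, and 3.32 and 5.25 on day 7. Both TKO libraries lay above both WT libraries on days 4 and 7. On day 7 the log2 fold change was 4.71 ± 0.71 (SE, adjusted p = 0.00228, edgeR), from 228 and 372 estimated counts in TKO against 25.5 and 0.51 in WT. Called transcripts were 8.05% on that day. It was 8.31 without WT replicate 1 and 3.76 without WT replicate 2, so its size is not fixed by these data. The change of its difference since day 0 was 4.85 (adjusted p = 0.0112, edgeR), where 4.18% of all transcripts were called. Uhrf1-204 gave 2.21 on day 4 and 1.95 on day 7 without being called (adjusted p of 0.177 and 0.147), though set against the rest of the gene it passed on day 4 (log2 1.89, adjusted p = 0.0382, diffSpliceDGE). Its WT libraries of day 4 held 490.3 and 45.9 estimated counts. Its day 4 value was 4.475 and called without WT replicate 1 (adjusted p = 0.0127, edgeR), and 1.39 without WT replicate 2 (adjusted p = 0.343).

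Summed by first exon, the upstream start held 75.8% and 82.1% of the 4 transcripts in WT on day 0 and 74.5% and 72.8% on day 7. In TKO it held 81.3% and 81.6% on day 0 and 65.2% and 68.0% on day 7. Over all 16 libraries it ran from 65.2% to 87.8%. The 24-base stretch was kept in 73.1% to 83.8%, with group means of 74.3% to 79.3% in WT and 79.4% to 82.2% in TKO. None of the 4 Uhrf1 transcripts passed the test of shares between genotypes (exact permutation within day, adjusted p of 0.823 for Uhrf1-201, 0.265 for Uhrf1-202, 0.583 for Uhrf1-203 and 0.460 for Uhrf1-204). That test averages the difference over the 4 days, so it cannot show differences that change sign between days. Uhrf1-201 gave 9.37 points on day 2 and -8.36 on day 7, and Uhrf1-204 -3.70 and 11.46, without a test.

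**Figure D3:**
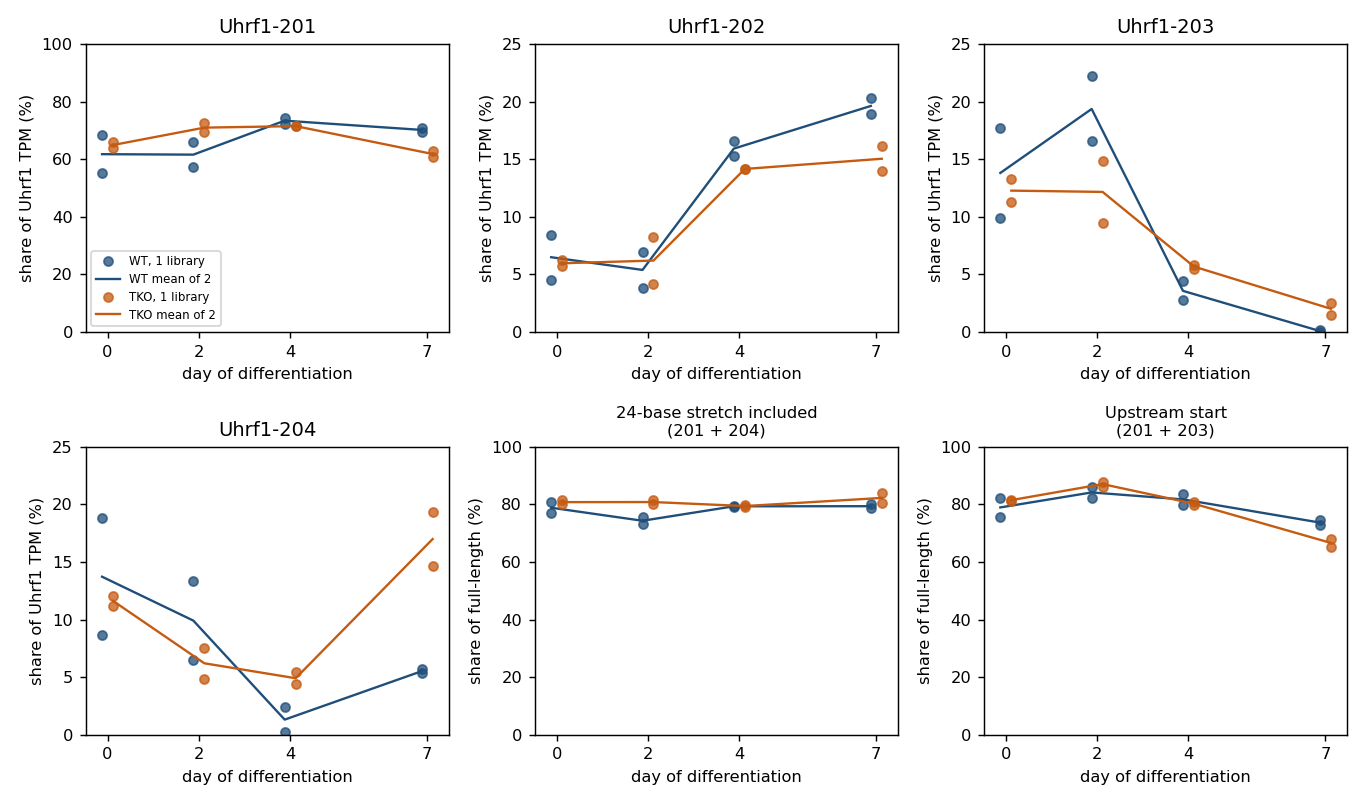
Share of Uhrf1 TPM (y, percent) for Uhrf1-201 to Uhrf1-204, and the share of these 4 that keeps the 24-base stretch or uses the upstream first exon, by day (x), with 1 point per library and lines through the means of 2. Uhrf1-203 drops to 0.18% or less in WT by day 7, while the stretch is kept in 73.1% to 83.8%.

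The partial transcripts with retained introns were minor: Uhrf1-205 reached 14 TPM, Uhrf1-206 7.15 TPM and the short coding form Uhrf1-207 3.76 TPM. Between day 0 and day 7 Uhrf1-205 fell by 1.14 in WT and by 1.76 in TKO, and Uhrf1-206 fell by 1.33 and by 1.16 (adjusted p of 0.0264, 0.00272, 0.00184 and 0.00407, edgeR). The WT call of Uhrf1-205 was lost without a filter on low counts (adjusted p = 0.0516), without WT day 0 replicate 2 (0.0923) and without WT day 7 replicate 1 or 2 (0.144 or 0.0992). None of these 3 was called between genotypes. Of the 4310 words of Uhrf1, 943 also occur in the gene Gm5648, which held at most 2.08 counts a library, and 136 in Gm15953, which held 6 to 25, against 13890 or more for Uhrf1.

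**Figure D4:**
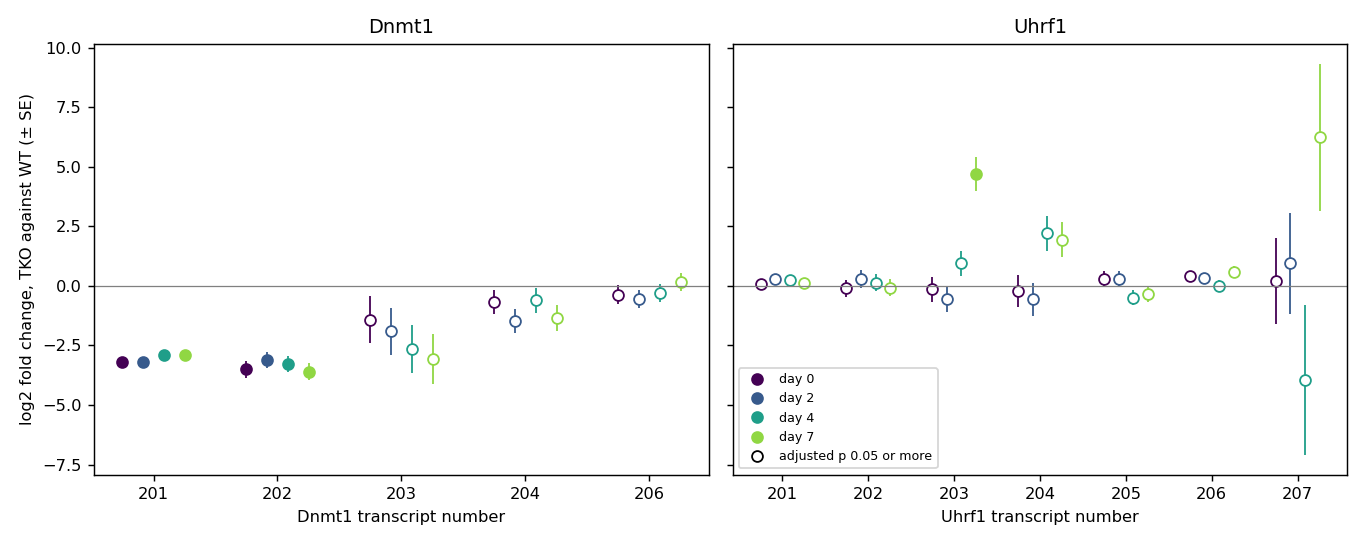
Log2 fold change of TKO against WT (y, ± SE) for the 12 transcripts tested (x), coloured by day, with open points where the adjusted p is 0.05 or more. Dnmt1-201 and Dnmt1-202 lie between -2.89 and -3.60 on all 4 days, Dnmt1-206 between -0.54 and 0.17.

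Of 11 genes for proteins that act with Dnmt1 and Uhrf1 at replicating DNA, more were lower than higher in TKO. On day 0, 3 were lower and 0 higher, on day 2, 2 and 0, on day 4, 3 and 1, and on day 7, 6 and 1. Of these calls 1 of 3, 0 of 2, 2 of 4 and 5 of 7 held whichever of the 4 libraries of the day was left out. The day 0 count was 1 lower without TKO replicate 2, and the day 2 count was 0 without WT replicate 2 or either TKO replicate (edgeR). The 1 higher, Uhrf2, was not called on day 4 without TKO replicate 1 or either WT replicate, nor on day 7 without WT replicate 2 or either TKO replicate. Lower genes were 8.16%, 5.52%, 11.1% and 21.1% of all genes on these days, and higher genes 4.52%, 7.91%, 17.8% and 23.4%. In limma on log2(TPM + 1) the partners were 1 lower and 1 higher on day 0, and 2 lower and 1 higher on day 7. The median log2 fold change of the list was -0.09, -0.21, -0.22 and -0.24, and that of all genes -0.03, -0.01, 0.01 and 0.00. Pclaf, the ubiquitinated PCNA partner that Dnmt1 binds, fell by 0.47 on day 0, by 0.47 on day 4 and by 1.07 on day 7 (adjusted p of 0.00572, 0.00135 and 5.82e-07, edgeR). On day 0 it did not pass without TKO replicate 2 (adjusted p = 0.0801). Its day 7 levels were 168 and 174 CPM in WT and 83.8 and 79.0 CPM in TKO. Pclaf rose with time, by 2.57 from day 0 to day 7 in WT, where it began at 30.6 and 27.2 CPM, and by 1.96 in TKO (adjusted p of 3.23e-11 and 3.97e-10). Pcna, the replication clamp, fell by 0.45 on day 7 (adjusted p = 0.00117).

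Cdca7, which brings the remodeller Hells to chromatin, fell by 0.37 on day 0, by 0.28 on day 4 and by 0.38 on day 7. On day 0 Cdca7 did not pass without WT replicate 1 or either TKO replicate, nor on day 4 without WT or TKO replicate 2 (-0.15 and -0.19). Hells fell by 0.32 on day 2 (adjusted p = 0.0183), with -0.20 on day 7 (adjusted p = 0.0506), and on day 2 it did not pass whichever library was left out. Zbtb24, a transcription factor for Cdca7, fell by 0.40 on day 7. Hdac1, a histone deacetylase, fell by 0.37, 0.32 and 0.28 on days 2, 4 and 7, and Hdac2 fell by 0.24 on day 7. On day 2 Hdac1 did not pass without WT replicate 2 or either TKO replicate, and Hdac2 did not pass whichever of the 4 day 7 libraries was left out. Usp7, the deubiquitinase bound by both members, Lig1, the ligase of replication, and Dmap1 were not called on any day (adjusted p from 0.0721 to 0.664 for Usp7, 0.0948 to 0.654 for Lig1 and 0.103 to 0.304 for Dmap1).

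Uhrf2, the paralog of Uhrf1, was called lower in TKO on day 0 and higher later. It stood at 12.5 and 12.4 CPM in TKO against 23.5 and 26.3 in WT on day 0, a log2 fold change of -0.997 (adjusted p = 5.49e-05, edgeR). On day 4 and day 7 it was higher, by 0.30 and 0.33 (adjusted p of 0.0283 and 0.0106), with 114 and 117 CPM in TKO against 96.3 and 87.1 in WT on day 7. Over the course Uhrf2 rose by 1.88 in WT and by 3.21 in TKO (adjusted p of 9.93e-10 and 1.2e-11).

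Of 5 regulators of the Dnmt1 and Uhrf1 proteins, none was called on days 0 and 2, where 12.7% and 13.4% of all genes were. On day 4, 1 was higher and 1 lower, where 17.8% of all genes were higher and 11.1% lower. On day 7, 2 were lower and 0 higher, where 21.1% of all genes were lower and 23.4% higher. Dppa3, which keeps Uhrf1 off chromatin, was higher in TKO on day 4 (log2 2.45, adjusted p = 0.0118), but at 1.08 and 0.37 CPM against 0.14 and 0.13 CPM, and the call was lost without TKO replicate 1 (1.45, adjusted p = 0.192, edgeR) or either WT replicate. It had been at 38.0 and 36.1 CPM in TKO and 69.8 and 51.4 CPM in WT on day 0 (adjusted p = 0.104). Setd7, a lysine methyltransferase that acts on Dnmt1, fell by 0.68 on day 4 and by 0.69 on day 7. Kdm1a, the demethylase that acts on the same protein, fell by 0.38 on day 7. Kat5 and Phf20l1 were not called.

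**Figure D5:**
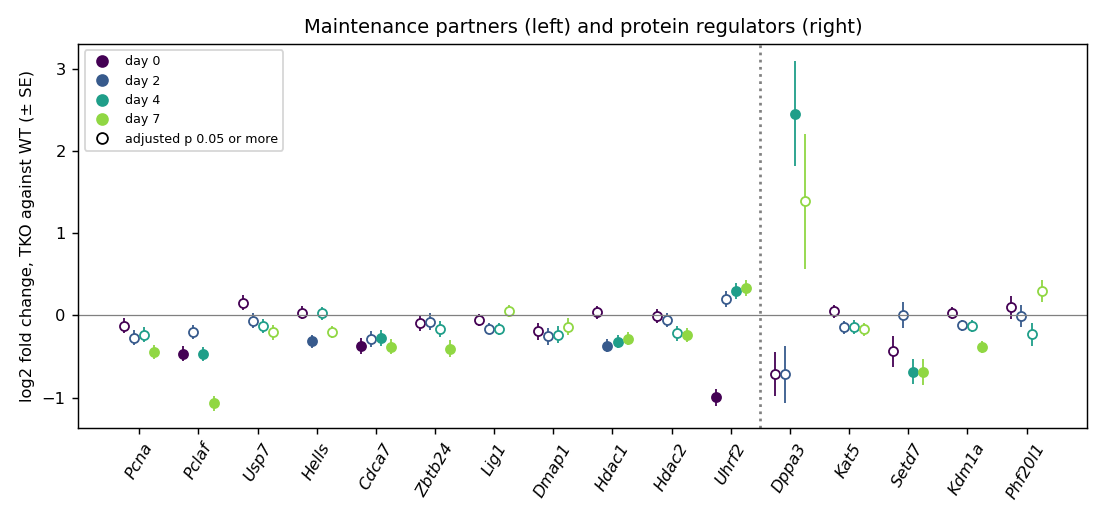
Log2 fold change of TKO against WT (y, ± SE) for 11 partners and 5 protein regulators of Dnmt1 and Uhrf1 (x), coloured by day, with open points where the adjusted p is 0.05 or more. Pclaf reaches -1.07 on day 7, and Uhrf2 goes from -0.997 on day 0 to 0.33 on day 7.

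Of the other methyltransferase genes taken to be disrupted, Dnmt3a was called lower in TKO on days 0, 2 and 7 (log2 of -3.53, -4.08 and -3.13), with -1.61 on day 4 (adjusted p = 0.0553, edgeR). Its day 4 value was -3.33 without TKO replicate 1 and -0.86 without TKO replicate 2, both called, and on day 0 it did not pass without WT replicate 1 or either TKO replicate. Dnmt3b was not called on day 0 (0.04 ± 0.20 SE, adjusted p = 0.941) and fell by 0.91, 1.22 and 1.71 on days 2, 4 and 7. On day 2 it did not pass without TKO replicate 2, and its day 4 value was -0.87 or -1.68 without TKO replicate 1 or 2.

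Transcripts of both members are most abundant in dividing cells, and cell cycle genes were set beside them. Of 24 S-phase and replication genes, 3, 5, 5 and 8 were lower and 1, 0, 1 and 0 higher in TKO on days 0, 2, 4 and 7 by edgeR, where 8.16%, 5.52%, 11.1% and 21.1% of all genes were lower and 4.52%, 7.91%, 17.8% and 23.4% higher. Leaving out 1 library gave 0 to 7, 0 to 3, 1 to 5 and 5 to 10 lower, and 0 to 2, 0, 1 and 0 higher. Only 0 of 4, 0 of 5, 2 of 6 and 4 of 8 calls held whichever library was left out, among them Chaf1b on days 4 and 7, Ccne2 on day 4 and Gins2 on day 7. The day 0 direction flipped in limma on log2(TPM + 1), where 0 were lower and 8 higher. Chaf1b, a subunit of chromatin assembly factor, fell by 0.28, 0.37, 0.48 and 0.67 on the 4 days, and Gins2, of the replicative helicase, fell by 0.63 on day 7. Usp1, a deubiquitinase of PCNA, was 0.28 higher on day 0 and fell by 0.33 on day 2. Prim1, a primase subunit, fell by 0.36 on day 0, and on day 4 the helicase subunit Mcm4 fell by 0.28 while the cyclin Ccne2 was 0.47 higher. Of 15 G2 and mitosis genes, 0, 2, 1 and 7 were lower and 0 higher (0 to 3, 0 to 1, 1 and 3 to 8 lower with 1 library left out, and up to 3 higher on day 0 without WT replicate 2), among them the checkpoint kinase Bub1, which fell by 0.43 on day 4 and by 0.65 on day 7. Cenpf, a kinetochore protein, and the kinase Cdk1 fell by 0.55 and by 0.38 on day 2, neither called without WT replicate 2 or either TKO replicate, and the kinase Aurkb fell by 0.35 on day 7. Top2a and Mki67, the most abundant of these on average, gave 0.04 and 0.24 on day 0, when none was called (adjusted p of 0.856 and 0.302). From day 0 to day 7, 11 of the 24 S-phase genes were lower and 3 higher in WT, and 18 lower and 2 higher in TKO, where 33.2% and 31.7% of all genes were lower and 32.9% and 36.1% higher. Uhrf1 was slightly higher in TKO on day 7 while by edgeR none of these 24 and 15 genes was called higher then (2 and 1 in limma on log2(TPM + 1)). The part of the cell cycle or of the mesoderm markers in the levels of Dnmt1 and Uhrf1 was not tested.

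The genes whose log2 CPM was most like that of a member were taken from 17002 protein-coding genes, as a description. Over 16 libraries Dnmt1 was most like Orc4, a subunit of the origin recognition complex (r = 0.936), Ttc12 (0.936), Zcchc9 (0.925), Nemf (0.900) and Usp14 (0.894). Their genotype differences were far smaller than that of Dnmt1: Orc4 gave -0.33 and Ttc12 -0.85 on day 0. Over the 8 WT libraries alone the list was Sirt1, a deacetylase (0.992), Phf20 (0.990), Camk1d (0.990), Zbtb43 (0.989) and Vmn2r6 (0.987), with no gene in common. Vmn2r6 was scarce, at 0.69 to 2.56 CPM over the 16 libraries. Uhrf1 was most like Akap1, an anchor of protein kinase A (0.993), Snx20 (0.991), Tex2 (0.990), the acetyltransferase Kat6b (0.989) and Itpka (0.989) over 16 libraries. Over the WT libraries it was most like Arid5b (0.998), Akap1 (0.997), Zfp28 (0.997), Gm13128 (0.997) and Zfp229 (0.996). Snx20, Itpka and Gm13128 were scarce late, at 0.854 CPM or less in every day 7 library. Akap1, in both lists, was 0.40 higher in TKO on day 7 (adjusted p = 0.00042, edgeR).

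The 250 bases before the RefSeq starts are shown because the members' transcripts divide by their start. They are from RefSeq on GRCm38.p6, 5′ to 3′ on the strand of the gene, with each CCAAT and each TTTNNCGC, an E2F-like word, on either strand in capitals. In all 32851 promoters of this length, 33.8% hold CCAAT and 4.28% hold TTTNNCGC, and the median holds 6 CpG. The stretch before Dnmt1-202 (chr9:20959889-20960138) has 2 CpG and 4 CCAAT, and that before Dnmt1-201 (chr9:20952980-20953229) has 7 CpG and neither word. The stretch before the upstream Uhrf1 exon (chr17:56303087-56303336) has 10 CpG, 1 CCAAT and 1 TTTNNCGC, and that before the downstream exon (chr17:56304063-56304312) has 30 CpG, more than 94.1% of promoters, with 2 CCAAT and 1 TTTNNCGC. The window before the long first exon of Dnmt1-203 (chr9:20952624-20952873), not printed because it lies largely within the first exon of Dnmt1-201, has 26 CpG, more than 90.4% of promoters, with 3 CCAAT and 2 TTTNNCGC. The upstream Uhrf1 window runs 16 bases into the first exon of Uhrf1-201. These matches are letters in a window, not sites.
Dnmt1-202 start: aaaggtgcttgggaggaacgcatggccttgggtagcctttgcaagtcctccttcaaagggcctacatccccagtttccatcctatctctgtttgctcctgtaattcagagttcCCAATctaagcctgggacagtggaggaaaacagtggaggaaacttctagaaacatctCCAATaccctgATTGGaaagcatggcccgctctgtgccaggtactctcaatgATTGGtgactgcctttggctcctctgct
Dnmt1-201 start: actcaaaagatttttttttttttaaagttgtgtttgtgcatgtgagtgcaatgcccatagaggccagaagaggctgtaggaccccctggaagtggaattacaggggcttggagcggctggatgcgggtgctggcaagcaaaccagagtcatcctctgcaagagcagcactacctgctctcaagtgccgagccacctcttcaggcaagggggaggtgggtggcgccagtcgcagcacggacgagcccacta
Uhrf1 upstream start: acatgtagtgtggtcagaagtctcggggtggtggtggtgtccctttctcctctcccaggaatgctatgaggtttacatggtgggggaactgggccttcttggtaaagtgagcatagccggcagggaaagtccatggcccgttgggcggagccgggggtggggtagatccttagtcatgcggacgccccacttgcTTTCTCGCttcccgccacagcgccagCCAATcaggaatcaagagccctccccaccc
Uhrf1 downstream start: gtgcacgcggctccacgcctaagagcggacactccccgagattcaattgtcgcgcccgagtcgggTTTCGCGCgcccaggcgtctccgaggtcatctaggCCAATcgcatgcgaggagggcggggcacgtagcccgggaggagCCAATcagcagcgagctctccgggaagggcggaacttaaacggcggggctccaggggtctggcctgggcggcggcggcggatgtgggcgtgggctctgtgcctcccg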

How the data were processed

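Bulk RNA of 16 mouse embryonic stem cell libraries was made with a stranded messenger RNA kit, per the labels' protocols. The deposited tables give per transcript estimated counts (expected counts, not scaled) and TPM scaled for depth and length by the authors, per the file headers. The tool was kallisto, version not given in the sources used here, with GRCm38 and mm10 as builds, per the submitters' processing notes. The deposited effective length, a column of another kind in bases, served 1 alternative.

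Of 119414 transcripts, 116728 (97.8%) matched GENCODE vM21, and their estimated counts were summed to 35975 genes and then rounded. The tests ran over 18489 genes and 64490 transcripts in edgeR 4.0.16 (R 4.3.3), with TMM, filterByExpr, robust quasi-likelihood, 8 group means, 8 residual degrees of freedom, Benjamini-Hochberg over all features, threshold 0.05. Standard errors are the fold change over the root of the statistic. Shares of TPM were tested for transcripts with a mean share of at least 5%. The tests were run on simulated data with known changes first. Depth per library was 33168178 to 58197630 counts. The libraries are replicates by label only, and p-values may measure technical spread. Alternatives were other scalings (RLE), DESeq2 1.42.0, limma 3.58.1 on log2(TPM + 1) and log2(TPM + 0.1), other filters, a replicate block and leaving out libraries.

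The members, lists and the rule for named genes (every called partner and regulator, up to 2 S-phase and G2 genes per direction, the 5 genes most like each member) were chosen with earlier results of these data known.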

Additional observations from a re-analysis of the deposited data

Results flagged for a closer look

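By its estimated counts, Uhrf1-203 lost more of its level in WT than in TKO, and the test of the difference itself passed. From day 0 to day 7 the genotype difference changed by 4.85 on the log2 scale (adjusted p = 0.0112, edgeR over all transcripts). Its own change was -8.70 in WT, on 25.5 and 0.51 estimated counts on day 7, and -3.85 in TKO. With 1 library left out these ran from -12.31 to -7.76 and from -4.21 to -3.59, and both TKO libraries lay above both WT libraries on day 7. Uhrf1-203 has 0 words of 31 bases of its own, and in the sum with Uhrf1-201, which shares its first exon, the day 7 share was lower in TKO (66.6%) than in WT (73.7%). Set against the rest of the gene, Uhrf1-203 was called higher in TKO on day 7 (log2 4.39, adjusted p = 1.43e-06, edgeR diffSpliceDGE). Both tests rest on estimated counts and do not count the uncertainty of assigning reads among the transcripts. The second is thus no separate support for the first.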

How the results depend on the processing

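The TKO difference of Dnmt1 kept its direction and call on all 4 days under every alternative run. Depth does not limit the member sums, but Dnmt1-206 rests on 14.4 to 51.3 estimated counts a library and Uhrf1-203 and Uhrf1-204 on no words of their own. Over all alternatives 175 settings left a Dnmt1 gene result on its side, 12 ended a call and 9 turned a direction. For Uhrf1 these were 182, 10 and 2, and 2 settings gained a call. The cause was not tested where none is named.

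The Uhrf1 difference on day 4 was not called without a filter on low counts (0.2424), in limma on log2(TPM + 1) (0.2888) or log2(TPM + 0.1) (0.2903), or with only the 4 libraries compared (0.2533). The change of its difference from day 0 to day 7 was called with a stricter filter (0.2913) and in DESeq2 (0.225). In limma with pseudocounts 1 and 0.1, Dnmt1 lost the calls of WT day 2 against day 0 (-0.2023, -0.2038), WT day 4 against day 2 (-0.2707, -0.2731), TKO day 4 against day 2 (-0.2717, -0.2889) and TKO day 7 against day 0 (-0.271, -0.2869). The uncalled changes from day 4 to day 7 turned positive there: Dnmt1 in WT (0.07086, 0.07156), Dnmt1 in TKO (0.1085, 0.1158) and Uhrf1 in TKO (0.1421, 0.1427).

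Leaving out 1 library gave these ranges for gene results whose call or direction changed. The Uhrf1 difference ran from 0.2158 to 0.2728 on day 4 and from 0.1945 to 0.3047 on day 7. Dnmt1 ran from -0.3715 to -0.1448 for WT day 2 against day 0, from -0.4558 to -0.2885 for TKO day 4 against day 2, from -0.01075 to 0.01209 for WT day 7 against day 4 and from -0.1577 to 0.009882 for TKO day 7 against day 4. The Dnmt1 changes of the difference from day 0 ran from -0.0182 to 0.2366, from -0.01711 to 0.2663 and from -0.09365 to 0.2151 on days 2, 4 and 7.

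Uncalled transcript differences also turned when 1 library was left out. On day 0 Uhrf1-201 ran from -0.049 to 0.207, Uhrf1-202 from -0.478 to 0.3688, Uhrf1-203 from -0.552 to 0.3268, Uhrf1-204 from -0.7201 to 0.4518 and Uhrf1-207 from -0.4148 to 1.234. On day 2 Uhrf1-202 ran from -0.2813 to 0.8217, Uhrf1-204 from -0.9634 to 0.01433 and Uhrf1-207 from -4.234 to 5.145. On day 4 Uhrf1-206 ran from -0.01327 to 0.04386 and Uhrf1-207 from -4.826 to 0, and on day 7 Uhrf1-207 from 0 to 7.255 and Dnmt1-206 from -0.2915 to 0.5121. From day 0 to day 7 Dnmt1-206 in TKO ran from -0.4171 to 0.3866 and Uhrf1-202 in WT from -0.3182 to 0.5275.

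Shares moved more. In estimated counts the Dnmt1-201 difference turned to 1.978 points. On single days, without a test, Dnmt1-206 gave 8.233, 6.669 and 10.75 points on days 0, 2 and 4, Dnmt1-202 -11.74 on day 7 and Uhrf1-202 -4.581 on day 7. On days 2, 4 and 7 Uhrf1-201 gave 9.373, -1.884 and -8.359, Uhrf1-203 -7.198, 2.108 and 1.932, and Uhrf1-204 -3.702, 3.591 and 11.46. Leaving out 1 library, Dnmt1-201 ran from -7.692 to -3.328, Dnmt1-202 from -9.968 to -5.621 and Uhrf1-201 from -1.047 to 2.199, and the first 2 were called in 1 and 2 of 16 settings.

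Against the rest of the gene (diffSpliceDGE, log2), Dnmt1-206 gave 2.865, 2.593, 2.661 and 3.226 without a call, and Uhrf1-203 gave 4.387 on day 7 (called) and 0.6363 on day 4. Uhrf1-204 gave -0.2277, -0.6591 and 1.888 on days 0, 2 and 4, and Uhrf1-202 gave 0.1927 on day 2. Dnmt1-201 gave 0.02786, 0.07606 and 0.151 on days 0, 4 and 7, Dnmt1-202 0.03525 on day 2, and Uhrf1-201 -0.06332 and -0.1839 on days 4 and 7.

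The replicate numbers did not pair the libraries: over 28 pairs of groups the correlation of replicate differences was -0.332 to 0.0743. With the replicate block the Uhrf1 difference was 0.2458 on day 4 and 0.2852 on day 7 (adjusted p of 0.0325 and 0.0099, edgeR), no gene-level call of either member changed, and the uncalled Uhrf1-207 difference on day 0 was -0.1395.

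Counts over all genes depended on the setting. With only the 4 libraries compared, 110 genes were higher and 249 lower on day 0, and 1789 and 1032 on day 4. In limma on log2(TPM + 1), 1065 were lower on day 4 and 2322 on day 7. With an effective-length offset 534 were lower on day 2. Leaving out 1 library, day 0 gave 218 to 1919 higher and 469 to 2375 lower, and day 2 gave 464 to 990 higher and 115 to 1018 lower.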
